A study of Mus musculus with 6 samples.

Results

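The genes described here code for the nuclear-encoded subunits of oxidative phosphorylation, read in alveolar type 2 (AT2) cells of the mouse lung. They were chosen by name, as every gene of the deposited count table whose symbol begins with *Nduf* and a subunit letter and number, is *Sdha* to *Sdhd* or *Cyc1*, or begins with *Uqcr*, *Cox4* to *Cox8* or *Atp5*. The rule found 85 of 24421 genes: 37 of complex I, 4 of complex II, 9 of complex III, 18 of complex IV and 17 of complex V. Of these, 81 passed the filter on low counts and were tested among 16723 genes. By their names, the rule also takes in *Atp5s* and *Atp5sl*, which are not structural subunits of complex V, and *Cox7a2l*, which is best known as a factor that joins complexes III and IV. *Ndufa4* and its relative *Ndufa4l2* are counted here under complex I by name, although the *Ndufa4* protein is now placed in complex IV.

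Oxidative phosphorylation makes most of a cell's ATP in the inner membrane of the mitochondrion. Complexes I and II pass electrons from NADH and succinate to ubiquinone, complex III passes them to cytochrome c and complex IV to oxygen, and complex V uses the proton gradient made on the way to synthesize ATP. AT2 cells make and secrete surfactant, are rich in mitochondria, and are the progenitors of the flat alveolar type 1 (AT1) cells. A few subunits of complex IV exist as pairs of paralogs, of which one is used in most tissues and the other mainly in particular tissues or states of oxygen supply.

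RNA was sequenced from lineage-labeled cells sorted by FACS from 3 mice in each of 2 groups. AT2CTRL cells came from Sftpc-CreERT2/+; R26-tdTomato/+ mice, and AT2CAB cells from Sftpc-CreERT2/+; R26-tdTomato/R26-caBmpr1a mice, in which the *Rosa26* locus carries a constitutively active form of the BMP receptor BMPR1a. Both alleles at *Rosa26* are switched on in AT2 cells by tamoxifen, through a Cre made under the control of the surfactant gene *Sftpc*. All 6 mice carried the Cre and the tdTomato label, and the active receptor was the difference in genotype. AT2CTRL replicates 1, 2 and 3 were 12, 16 and 12 weeks old, and AT2CAB replicates 1, 2 and 3 were 16, 12 and 12 weeks old. Cells were sorted on tdTomato, and the study infers from organoid colonies that some AT2 cells of these mice had recombined the label and not the receptor allele, so an AT2CAB library may hold cells without the active receptor. The comparison asks whether the subunit genes change in AT2 cells with active BMP signaling.

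The libraries held between 21554249 and 28440227 counts, and 3 counts, the smallest number read here as a signal, came to between 0.0976 and 0.138 CPM (counts per library total corrected by edgeR's TMM factors, the scale of all CPM given here), which covers counting error only. The AT2 list was high in all 6 libraries, and its 10 genes summed to 117500 to 132600 CPM in AT2CTRL and 100300 to 112200 CPM in AT2CAB. AT2CTRL replicate 1 and AT2CAB replicate 3 had 176.4 and 146.3 CPM on 4 Y-linked genes and the other libraries had 0. The first principal component held 49.5% of the variance over all genes. It put these 2 libraries at the same end, with scores of -35.6 and -72.4. The others ran from 1.19 (AT2CAB replicate 1) to 54.2 without a clear gap. In bulk RNA, fewer cells of a type and less RNA per cell cannot be told apart.

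Of the 85 genes, 69 have a promoter in the RefSeq table used here, which spans 250 bases before and 50 bases after each start on GRCm38.p6. These windows were searched on both strands for GCGCANGCG, the core of the site of NRF1 (nuclear respiratory factor 1), CCGGAAG, the core of the site of ETS factors such as GABPA, and AAGATGGCG, a core of the site of YY1. All 3 factors are textbook regulators of respiratory genes. A match to at least 1 of them was found in 34 of the 69 promoters (49.3%), against 15.3% of all 27025 promoters and 20.3% of the 17491 promoters of protein-coding genes. The NRF1 letters were in 27.5% of the subunit promoters and 6.47% of all promoters, the ETS letters in 21.7% and 9.12%, and the YY1 letters in 10.1% and 1.49%. By complex, a match to any of them was found in 50% of 32 promoters of complex I, all 3 of complex II, 60% of 5 of complex III, 23.1% of 13 of complex IV and 56.2% of 16 of complex V. A match is a description of the letters and not a measured binding site. No promoter was read for *Atp5a1*, *Cox4i1*, *Cox4i2*, *Cox6a2*, *Cox6c*, *Cox8c*, *Cyc1*, *Ndufa2*, *Ndufa4l2*, *Ndufb9*, *Ndufs1*, *Sdhc*, *Uqcrb*, *Uqcrc2* and *Uqcrq*.

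**Figure D1:**
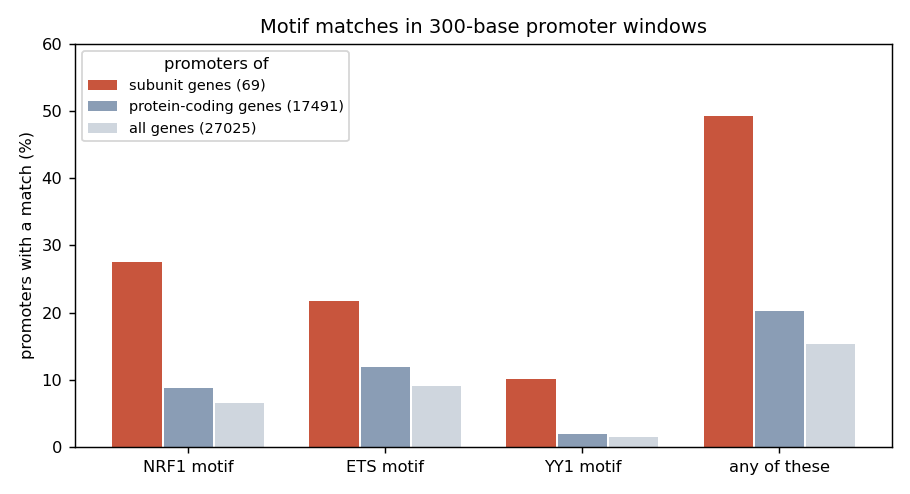
Share of 300-base promoter windows (%) with a match to the NRF1, ETS or YY1 letters or to any of them, for the 69 subunit genes, the 17491 protein-coding genes and all 27025 genes with a promoter. Each bar is 1 share, and the bars of the subunit genes are the tallest for every motif, with 49.3% for any motif.

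For each complex, a promoter with the most kinds of motif is shown, and among these the one with the most matches, so that the reader can see how such matches sit in the sequence. *Ndufb4*, *Sdha* and *Uqcrc1* had more matches (3 each) than the genes shown for their complexes, all of them to NRF1. In complex V, *Atp5l* tied with *Atp5k* (2 kinds and 3 matches each), and *Atp5k* was taken as the first by name. No match shown overlaps one of another motif. The letters that match are in capitals, as read on the strand of the gene or, where reversed, on the other strand. They are the promoters of *Ndufs6* (complex I, chr13:73328433-73328732, minus strand), *Sdhd* (complex II, chr9:50603800-50604099, minus strand), *Uqcr11* (complex III, chr10:80406772-80407071, minus strand), *Cox6a1* (complex IV, chr5:115348909-115349208, minus strand) and *Atp5k* (complex V, chr5:108434350-108434649, minus strand), all on GRCm38.p6.
Ndufs6: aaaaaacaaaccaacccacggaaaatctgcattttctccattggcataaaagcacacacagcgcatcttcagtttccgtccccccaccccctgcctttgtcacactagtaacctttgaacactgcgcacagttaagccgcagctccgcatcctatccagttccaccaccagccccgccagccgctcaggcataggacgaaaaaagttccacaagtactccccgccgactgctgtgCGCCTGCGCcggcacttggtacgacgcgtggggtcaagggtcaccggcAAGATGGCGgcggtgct
Sdhd: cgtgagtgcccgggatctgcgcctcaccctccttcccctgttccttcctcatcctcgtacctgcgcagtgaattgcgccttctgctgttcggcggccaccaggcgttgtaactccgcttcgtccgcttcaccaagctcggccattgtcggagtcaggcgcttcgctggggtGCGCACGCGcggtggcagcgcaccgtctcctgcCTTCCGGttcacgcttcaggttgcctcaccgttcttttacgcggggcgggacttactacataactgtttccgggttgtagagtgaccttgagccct
Uqcr11: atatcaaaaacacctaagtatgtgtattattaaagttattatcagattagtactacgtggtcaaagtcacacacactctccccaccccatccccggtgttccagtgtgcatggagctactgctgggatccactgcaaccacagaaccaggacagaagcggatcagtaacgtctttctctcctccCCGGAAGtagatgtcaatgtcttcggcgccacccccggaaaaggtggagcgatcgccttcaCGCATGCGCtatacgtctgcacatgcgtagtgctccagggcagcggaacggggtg
Cox6a1: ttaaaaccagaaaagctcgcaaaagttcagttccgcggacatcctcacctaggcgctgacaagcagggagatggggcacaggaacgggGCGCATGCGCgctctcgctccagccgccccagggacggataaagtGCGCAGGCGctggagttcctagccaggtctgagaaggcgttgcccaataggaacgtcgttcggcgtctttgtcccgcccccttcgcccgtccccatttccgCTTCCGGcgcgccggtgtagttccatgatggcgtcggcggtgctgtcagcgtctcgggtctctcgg
Atp5k: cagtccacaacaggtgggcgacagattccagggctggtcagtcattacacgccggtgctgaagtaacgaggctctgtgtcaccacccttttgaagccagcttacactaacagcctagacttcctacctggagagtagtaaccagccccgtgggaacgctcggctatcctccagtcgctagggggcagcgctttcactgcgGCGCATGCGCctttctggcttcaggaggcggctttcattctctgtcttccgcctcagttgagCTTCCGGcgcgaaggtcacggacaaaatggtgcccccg
In *Ndufs6*, a match to NRF1 begins at base -15 and a match to YY1 at base 34, counted from the start of the gene. The promoter of *Sdhd* holds NRF1 letters at -79 and ETS letters at -46, and that of *Uqcr11* ETS letters at -66 and NRF1 letters at -5. In *Cox6a1*, overlapping matches to NRF1 begin at -162 and -161, and further matches lie at -117 (NRF1) and -16 (ETS). In *Atp5k*, overlapping NRF1 matches at -50 and -49 are followed by an ETS match at 13. These 5 genes had log2 fold changes between AT2CAB and AT2CTRL of -0.012 (*Ndufs6*), -0.095 (*Sdhd*), 0.12 (*Uqcr11*), 0.017 (*Cox6a1*) and 0.048 (*Atp5k*), with standard errors (SE) from 0.10 to 0.18.

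No subunit gene was called different between AT2CAB and AT2CTRL cells by the main test, and the fold changes of most subunit genes were measured within narrow limits. At an adjusted p under 0.05 (quasi-likelihood test in edgeR, adjusted over all tested genes by Benjamini-Hochberg), 0 of the 81 genes were higher and 0 were lower, against 0.239% of all tested genes higher and 0.012% lower. DESeq2 called 1 of them higher, *Cox4i2*, and limma-voom called 0. Asking also for a change of over 2-fold, the background was 0.227% higher and 0.012% lower. At an unadjusted p under 0.05, 2 subunit genes were higher (*Cox4i2* and *Ndufa4l2*; 4.62% of all genes) and 3 were lower, among them *Cox6a2* and *Cox7a2l* (5.05% of all genes). All 3 AT2CAB values lay above all 3 AT2CTRL values for 2 of the 81 (7% of all genes) and below them for 10 (10.1% of all genes). The 95% interval of the fold change stayed within 1.5-fold in either direction for 72 of the 81 subunit genes, as it did for 6280 of the 16723 genes. It stayed within 2-fold for 78 of the 81 and for 10056 of the 16723 genes. The subunit genes whose interval reached beyond 2-fold were *Cox4i2*, *Ndufa4l2* and *Cox7a1*. These intervals take the TMM scaling as given.

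The median log2 fold change over the 81 genes was -0.049, with 23 values above and 58 below 0, but its direction depended on the scaling and on 1 library: it was 0.081 with scaling by library size only and 0.075 without AT2CTRL replicate 1. The median over all tested genes was -0.0096. By complex, the medians were -0.060 for complex I (36 genes), -0.097 for complex II (4), -0.073 for complex III (9), -0.0085 for complex IV (15) and -0.026 for complex V (17), and all 5 were positive with library size only.

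**Figure D2:**
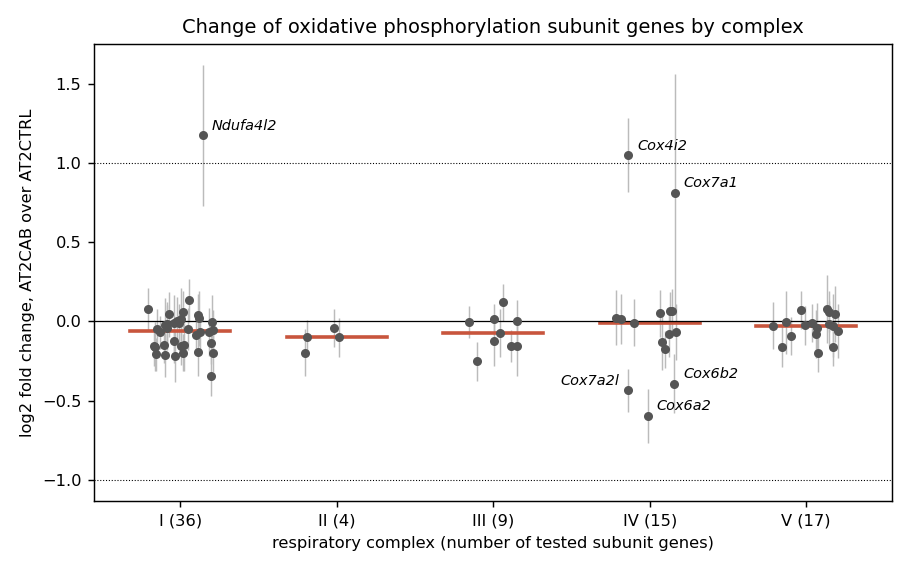
Log2 fold change of each of the 81 tested subunit genes (AT2CAB over AT2CTRL, 3 libraries per group) by respiratory complex, with points for genes, gray bars for 1 SE and orange lines for the median of a complex. Dotted lines mark a 2-fold change, the medians lie between -0.097 and -0.0085, and the genes with the largest changes are named.

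The pattern that most subunits shared was between libraries rather than between groups. AT2CTRL replicate 1 had the highest CPM for 71 of the 81 subunit genes (87.7%), while it was highest for 23.0% of all genes. AT2CTRL replicate 2 was lowest for 37 of the 81 (45.7%), against 12.4% of all genes. AT2CAB replicate 3 was lowest for 21 (25.93%), no more than its share of 26.85% over all genes. In log2 CPM, the median subunit gene lay 0.26 above its own mean over the 6 libraries in AT2CTRL replicate 1, and between -0.12 and -0.0042 in the other 5 libraries. The same library was high in each complex, with medians of 0.23 for complex I, 0.12 for complex II, 0.23 for complex III, 0.35 for complex IV and 0.27 for complex V. Cytosolic ribosomal protein genes (0.39) and mitochondrial ribosomal protein genes (0.24) were high in it as well, against 0.052 over all genes. The same shifts appear in the differences between groups when the libraries are split, which is no separate measurement of them. Within the 4 libraries lacking Y-linked reads, which are 2 of each group, 60 of the 81 subunit genes had a positive log2 fold change and the median was 0.12, against 0.016 over all genes in those libraries. Between the pair that had such reads, AT2CAB replicate 3 against AT2CTRL replicate 1, the median log2 ratio was -0.25 for the subunit genes and 0.0033 over all genes.

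**Figure D3:**
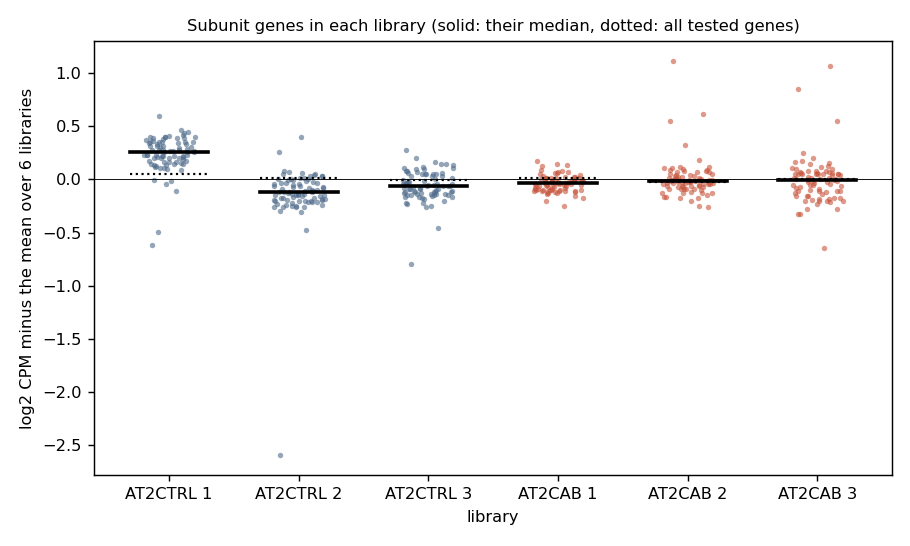
Log2 CPM of each of the 81 tested subunit genes minus its mean over the 6 libraries, with 1 column of points per library, a solid line for the median of the subunit genes and a dotted line for the median of all tested genes. The points of AT2CTRL replicate 1 sit higher than those of the other libraries, with a median of 0.26, and the single lowest point is *Cox7a1* in AT2CTRL replicate 2.

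Levels were compared between genes as TPM, counts divided by the gene length in the table and scaled to the same sum in each library. The subunit genes together took between 1.33% and 1.56% of all TPM in a library. Complexes I, IV and V had sums of similar size, with 4410 ± 351 TPM for complex I, 3622 ± 410 TPM for complex IV and 3995 ± 277 TPM for complex V in AT2CTRL (SD, n = 3). Complex III summed to 1548 ± 115 TPM and the 4 genes of complex II to 494 ± 19.2 TPM. In AT2CAB the sums were 4741 ± 136 (I), 512 ± 14.8 (II), 1689 ± 28.5 (III), 3971 ± 226 (IV) and 4326 ± 142 TPM (V), so on the TPM scale every complex had a higher mean. Scaled as CPM, each complex had a lower mean, at 0.941 times (I), 0.925 times (II), 0.956 times (III and IV) and 0.941 times (V) that of AT2CTRL, and the groups overlapped for each complex. The change of direction between both scales leaves no direction to read from the sums.

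**Figure D4:**
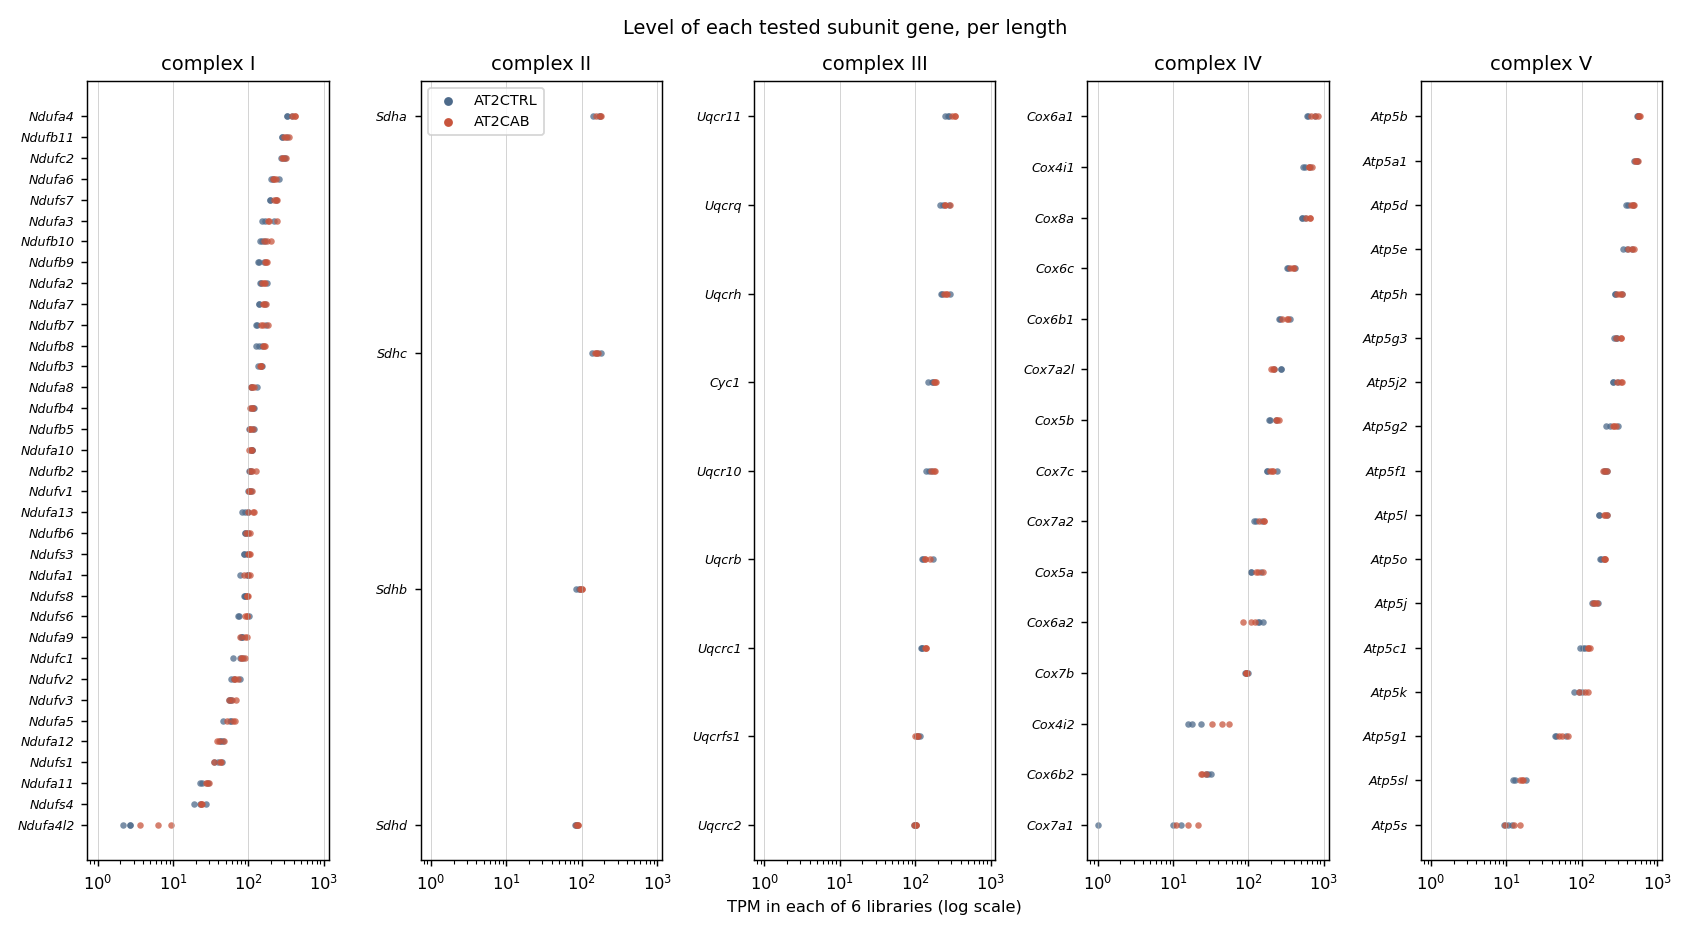
Level of 80 of the tested subunit genes in TPM (log scale), with 1 panel per complex, genes ordered by their mean and 1 point per library (blue for AT2CTRL, orange for AT2CAB). Most genes sit between 20 and 800 TPM with the 6 points close together, while *Ndufa4l2*, *Cox4i2* and *Cox7a1* are low and spread more widely.

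In complex I, no core subunit was called. These subunits hold the flavin and the iron-sulfur clusters that carry the electrons. Their log2 fold changes included -0.14 (*Ndufs1*), -0.011 (*Ndufs3*), -0.017 (*Ndufs7*), -0.069 (*Ndufs8*), -0.15 (*Ndufv1*) and -0.16 (*Ndufv2*). The 16 genes of the matrix arm, where NADH is oxidized, had a median of -0.095 and all had a negative sign under TMM scaling, while 7 of the 18 tested genes of the membrane arm, which pumps protons, were positive (median -0.048). The member of the complex with the largest positive change after *Ndufa4l2* was *Ndufa13* (0.13), and *Ndufa12* had a value of -0.22. Per length, *Ndufa4* was the highest gene under a complex I name, with 343 ± 29.9 TPM in AT2CTRL and 404 ± 20.4 TPM in AT2CAB, and *Ndufa4l2* was the lowest.

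*Ndufs5*, a membrane arm subunit, had 0 counts in all 6 libraries. In the gene models, 95.1% of its exon bases are shared with *BC002163* on the same strand, and reads on more than 1 gene were left out of the counting, so this 0 says nothing about its level. *BC002163* itself had 10, 9, 3, 8, 4 and 20 counts in the 6 libraries.

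Complex II, succinate dehydrogenase, links the TCA cycle with the respiratory chain and is the only complex with no mitochondrial-encoded subunit. *Sdha*, which holds the flavin, had 207.1, 225.2 and 229.4 CPM in AT2CTRL and 223.0, 209.6 and 185.0 CPM in AT2CAB. *Sdhb*, the iron-sulfur subunit, had 50.3, 41.1 and 47.6 CPM against 47.8, 45.1 and 42.3 CPM. The membrane anchors *Sdhc* (107.7, 74.2 and 87.0 against 80.4, 73.7 and 80.3 CPM) and *Sdhd* (53.0, 49.9 and 51.4 against 50.2, 48.8 and 45.5 CPM) completed the complex. The groups overlapped for each of the 4 genes. Their log2 fold changes were -0.0997 (*Sdha*), -0.040 (*Sdhb*), -0.20 (*Sdhc*) and -0.095 (*Sdhd*), with adjusted p-values between 0.692 and 0.927 by edgeR. Per length, *Sdha* (162 ± 17.6 TPM in AT2CTRL) and *Sdhc* (158 ± 20.97 TPM) did not differ beyond their spread, nor did *Sdhb* (90.2 ± 6.36 TPM) and *Sdhd* (83.8 ± 2.86 TPM).

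Complex III passes electrons from ubiquinol to cytochrome c, and its 9 genes lay between -0.25 and 0.12. *Uqcrfs1*, the Rieske iron-sulfur protein, had 79.0, 63.5 and 66.0 CPM in AT2CTRL and 62.2, 58.3 and 54.9 CPM in AT2CAB. The groups did not overlap, with a log2 fold change of -0.25 (SE 0.12, adjusted p = 0.564 by edgeR). It was -0.072 in the 4 libraries lacking Y-linked reads, and on the TPM scale the groups overlapped (105.2 to 117.8 against 100 to 108.4 TPM). *Cyc1*, cytochrome c1, was even across the libraries, with 91.6, 90.6 and 94.6 CPM against 92.6, 95.6 and 91.3 CPM and a log2 fold change of 0.014. *Uqcr11*, a small subunit, had the largest positive value of the complex (0.12) and the highest level per length (268 ± 15.8 TPM in AT2CTRL, 328 ± 15.5 TPM in AT2CAB). *Uqcrc2*, a core protein without redox centers, was lowest per length, with 100.2 ± 2.24 TPM in AT2CTRL and 101 ± 3.34 TPM in AT2CAB. *Uqcrb* had a log2 fold change of -0.16, and 53.8% of its 150-base windows also occur in another gene at 98% identity, so its counts are less certain.

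Complex IV, cytochrome c oxidase, held *Cox4i2*, *Cox6a2* and *Cox7a2l*, each with an unadjusted p under 0.05, and these are less common members of paralog pairs or, for *Cox7a2l*, a relative of *Cox7a1* and *Cox7a2*. *Cox4i2*, the form of subunit 4 known for its use in lung and at low oxygen, lies on mm10 chromosome 2 from 152754173 to 152765037. It had 6.59, 7.89 and 5.33 CPM in AT2CTRL and 10.3, 13.7 and 16.9 CPM in AT2CAB. All AT2CAB libraries were above all AT2CTRL libraries, with a log2 fold change of 1.05, or 2.07-fold (95% interval 1.43 to 3.00). The difference had an SE of 0.23 and an adjusted p = 0.186 by edgeR, and did not pass. DESeq2 called it (log2 fold change 1.06, adjusted p = 0.00705), as did edgeR with reads on Y-linked genes as a covariate (1.03, adjusted p = 0.0420). Those settings also called more of all genes, 119 higher and 25 lower with DESeq2 and 108 higher and 34 lower with the covariate, against 38 and 2. Over the 16 alternatives its log2 fold change lay between 0.90 and 1.24 and its adjusted p between 0.00705 and 0.641. In the 4 libraries lacking Y-linked reads it was 0.90 (adjusted p = 0.176 by edgeR).

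*Cox4i1*, the form of subunit 4 used in most tissues, had 258.2, 186.8 and 196.2 CPM in AT2CTRL and 211.7, 202.7 and 223.0 CPM in AT2CAB, with a log2 fold change of -0.0085 whose sign changed in 11 of the 16 alternatives. Per length, *Cox4i2* took 2.61%, 4.25% and 2.78% of the TPM of the pair in AT2CTRL and 4.85%, 6.65% and 7.39% in AT2CAB. The shares did not overlap, and the two-sided exact permutation test gave p = 0.1, the smallest that 3 against 3 libraries allow. A share within a library does not depend on how libraries are scaled to each other. It describes these 6 libraries, and p = 0.1 in the permutation test does not establish an unequal change of both genes. *Cox4i1* remained the main form, with at least 92.6% of the pair in every library.

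**Figure D5:**
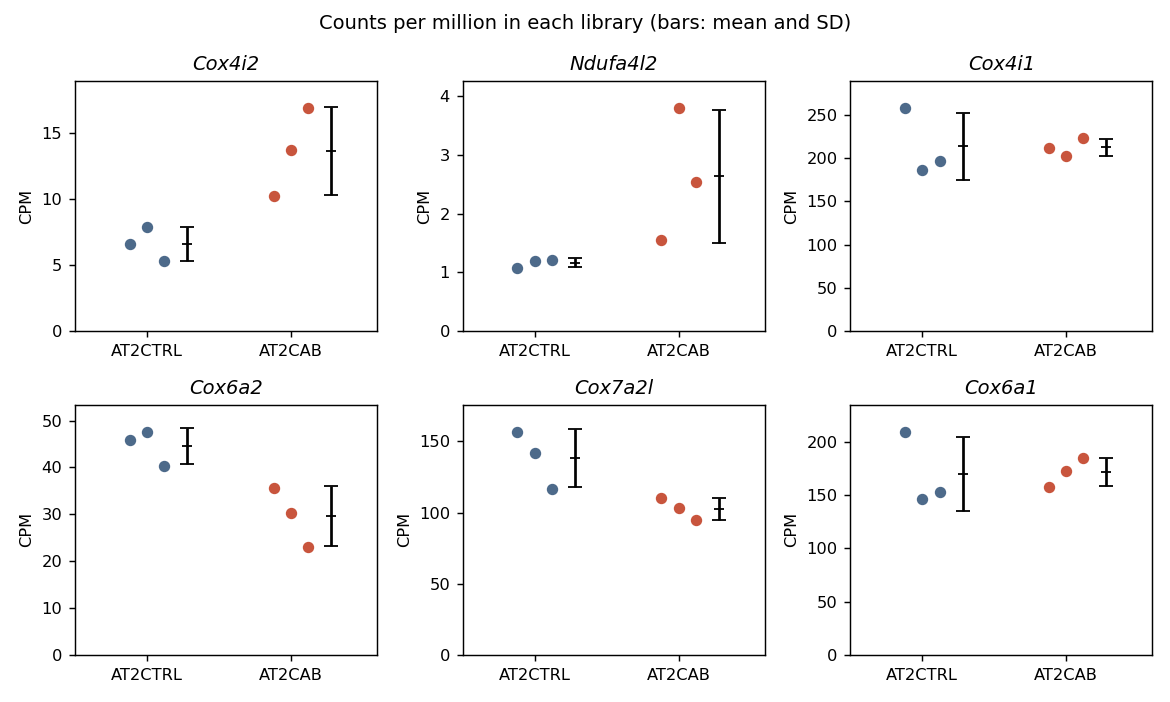
CPM in each library for *Cox4i2*, *Ndufa4l2*, *Cox6a2* and *Cox7a2l* and for the common paralogs *Cox4i1* and *Cox6a1*, with 1 point per library and bars for the mean and SD of 3 libraries per group. The points of *Cox4i2* and *Ndufa4l2* are higher in AT2CAB and those of *Cox6a2* and *Cox7a2l* are lower, with no overlap of the groups in these 4 panels, while those of *Cox4i1* and *Cox6a1* overlap.

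*Ndufa4l2*, a relative of *Ndufa4* that is known as a target of hypoxia-inducible factor 1, was the other gene higher at an unadjusted p (mm10 chromosome 10 from 127514939 to 127517156). It had 1.08, 1.2 and 1.22 CPM in AT2CTRL and 1.56, 3.8 and 2.54 CPM in AT2CAB. The groups did not overlap, but AT2CAB replicate 1 was close to AT2CTRL. The log2 fold change was 1.17 with a SE of 0.44 (adjusted p = 0.453 by edgeR), and it was 0.82 without AT2CAB replicate 2. Its share of the TPM of *Ndufa4* and *Ndufa4l2* was 0.575%, 0.831% and 0.824% in AT2CTRL and 0.962%, 2.23% and 1.48% in AT2CAB (two-sided exact permutation test, p = 0.1). *Ndufa4* had a log2 fold change of 0.062. In the gene models, 3.53% of the exon bases of *Ndufa4l2* overlap *Shmt2* on the opposite strand.

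*Cox4i2* and *Ndufa4l2* are also known from lung pericytes, and several lists of marker genes of other cell types had positive medians. Over all tested genes, 48.8% had a positive log2 fold change. Not every list had a higher sum in AT2CAB. The immune sum was lower (320.8 to 1416 CPM, against 2002 to 2717 CPM in AT2CTRL), which *Lyz1* set. Without *Lyz1* the immune sums overlapped (65.6 to 173.6 CPM, against 73.2 to 90.8 CPM in AT2CTRL). Of the 10 immune genes, 8 had a positive log2 fold change (median 0.65). The AT1 sums overlapped (2036 to 2276 CPM, against 1718 to 2696 CPM in AT2CTRL). The 9 mesenchymal genes all had a positive log2 fold change (median 0.44) and summed to between 149.6 and 199.6 CPM in AT2CTRL and between 239.4 and 297.5 CPM in AT2CAB. The 8 endothelial genes were all positive as well (median 0.62), with overlapping sums of 218.1 to 439.6 CPM against 388.3 to 627.8 CPM. A list of 12 pericyte genes, written after the values of the subunit genes were seen, was positive throughout (median 0.65) and summed to 66.7, 137.5 and 99.8 CPM in AT2CTRL and 141.4, 224.3 and 188.7 CPM in AT2CAB. Of it, *Kcnk3* alone passed the test, and without it the sums overlapped (62.9 to 129.1 against 108.4 to 184.3 CPM). The defining pericyte genes *Rgs5* and *Higd1b* were at 0.533 to 1.61 CPM and 0.852 to 2.17 CPM over the 6 libraries, with overlapping groups. The part of other cell types in the values of *Cox4i2* and *Ndufa4l2* was not tested.

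*Cox6a2*, the heart and muscle form of subunit 6a, was the subunit gene with the largest negative change. It had 46.0, 47.7 and 40.4 CPM in AT2CTRL and 35.6, 30.2 and 23.0 CPM in AT2CAB. Every AT2CAB library was below every AT2CTRL library, by a log2 fold change of -0.59, or 0.662-fold (95% interval 0.506 to 0.866; SE 0.17, adjusted p = 0.316 by edgeR). It was -0.39 in the 4 libraries lacking Y-linked reads, and its adjusted p lay between 0.0655 and 0.781 in the alternatives. The gene was well expressed in these cells, with 142 ± 13.5 TPM in AT2CTRL and 105 ± 20.4 TPM in AT2CAB, against 663 ± 93.1 and 759 ± 75.8 TPM for *Cox6a1*, the form of most tissues and the highest subunit gene per length in complex IV. The share of *Cox6a2* in the pair was 15.1%, 20.8% and 17.6% in AT2CTRL and 15.4%, 12.4% and 9.14% in AT2CAB. These shares overlapped (two-sided exact permutation test, p = 0.2). *Cox6a2* shares 10.5% of its exon bases with *Itgad* on the opposite strand, and strand was not used in the counting.

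*Cox7a2l*, which codes for the supercomplex factor SCAF1, had 156.9, 141.7 and 116.7 CPM in AT2CTRL and 109.9, 103.1 and 94.5 CPM in AT2CAB. The groups did not overlap, and the log2 fold change was -0.43 (SE 0.14, adjusted p = 0.372 by edgeR). It was -0.25 in the 4 libraries lacking Y-linked reads. *Cox7a1*, the muscle form of subunit 7a, had 2.38, 0.171 and 1.71 CPM against 1.74, 2.40 and 3.32 CPM, which overlap, and its value of 0.81 had an SE of 0.75. *Cox7a2*, the common form, had a log2 fold change of 0.052 and 88.3% to 99.1% of the TPM of both genes in the 6 libraries.

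*Cox6b2*, the testis form of subunit 6b, had 9.95, 7.67 and 8.22 CPM in AT2CTRL and 6.28, 6.28 and 7.09 CPM in AT2CAB, with a log2 fold change of -0.39 (SE 0.19, adjusted p = 0.549 by edgeR). Its share of the pair with *Cox6b1* was 8.24%, 9.61% and 10% against 7.64%, 7.03% and 7.60%, which did not overlap (two-sided exact permutation test, p = 0.1). *Cox8a* took at least 99.3% of the TPM of the *Cox8* genes in each library. *Cox8b* (3, 7 and 5 counts in AT2CTRL, 0, 4 and 0 in AT2CAB), *Cox8c* (4, 8 and 1 against 3, 4 and 18) and *Cox7b2* (18, 0 and 0 against 2, 2 and 7) failed the filter on low counts. *Cox5a* and *Cox5b*, further nuclear-encoded subunits of the complex, had log2 fold changes of 0.024 and 0.066.

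In complex V, 4 of the 5 genes of the catalytic F1 part had means over 400 TPM in AT2CTRL, while *Atp5c1* had 103 ± 6.61 TPM, and 0 of the 5 were called by edgeR at an adjusted p under 0.05. *Atp5b*, the catalytic beta subunit, had 514.5, 473.7 and 486.3 CPM in AT2CTRL and 476.1, 466.4 and 441.5 CPM in AT2CAB, a fold change of 0.939 (95% interval 0.779 to 1.13). *Atp5a1*, the alpha subunit, had 620.0, 604.2 and 608.6 CPM against 588.8, 543.1 and 510.0 CPM. These did not overlap, at a log2 fold change of -0.16 (adjusted p = 0.704 by edgeR), but on the TPM scale they did, with 499.0 to 540.6 TPM against 501.8 to 554.6 TPM. *Atp5c1*, the gamma subunit that turns inside F1, had a log2 fold change of 0.073. Over the 5 genes of F1 the median was -0.026, and over the 10 genes of Fo and the stalk, which anchor the enzyme in the membrane, it was -0.033. *Atp5f1* (-0.20) and *Atp5j* (-0.16) of the stalk were the lowest of the complex, and *Atp5s* was the highest (0.076) and had the lowest level per length (10.5 ± 1.28 TPM in AT2CTRL).

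The c ring of complex V is coded by 3 genes for the same mature protein. *Atp5g1* took 9.32%, 8.60% and 7.76% of their TPM in AT2CTRL and 8.84%, 7.86% and 9.55% in AT2CAB. *Atp5g2* took between 40.5% and 45.9%, and *Atp5g3* between 44.8% and 51.3% over the 6 libraries. The groups overlapped for all 3, with p between 0.7 and 0.9 in two-sided exact permutation tests. The counts of *Atp5l* and *Atp5h*, of which 65.0% and 63.0% of the windows occur in another gene, and of *Ndufs3* (58.9%), are less certain for this reason.

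The other genes of the pathway were described from lists. Scaling by library size only moved the median of all genes to 0.12, so the direction of a list whose median lies nearer to 0 than that depends on the scaling. Of the subunit and carrier genes that the naming rule misses, 4 were tested, and they ranged from -0.18 (*2010107E04Rik*) to 0.11 (*Cycs*, cytochrome c). Assembly factors had medians of -0.11 for complex I (16 tested), -0.093 for complex II (4), -0.14 for complex III (6), -0.16 for complex IV (21) and -0.062 for complex V (5), and 0 of them were called at an adjusted p under 0.05 in edgeR's test, while 2 of complex IV (9.52%) were lower at an unadjusted p under 0.05, against 5.05% of all genes. Their lowest values were -0.46 for *Ndufaf5*, -0.23 for *Sdhaf4*, -0.26 for *Uqcc1*, -0.45 for *Cox10* and -0.29 for *Atpaf2*, and their highest 0.085 for *Nubpl*, 0.0026 for *Sdhaf3*, 0.68 for *Lyrm7*, 0.16 for *Cox16* and 0.13 for *Atpif1*.

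Genes of the TCA cycle and pyruvate dehydrogenase, which feed the chain with electrons, had a median of -0.17 over 17 genes. Of these, 16 had a negative sign. In CPM, 10 (58.8%) had all AT2CAB values below all AT2CTRL values, against 10.1% of all genes. On the TPM scale the groups overlapped for each of these 10, as for *Dld* (61.8 to 71.5 TPM in AT2CTRL, 50.9 to 63.0 TPM in AT2CAB). None of the 17 passed at an adjusted p under 0.05 in edgeR's test. At an unadjusted p under 0.05 in it, 4 (23.5%) were lower, against 5.05% of all genes. The values ran from -0.39 for *Pdhx* (SE 0.16) to 0.068 for *Suclg1*. Mitochondrial ribosomal protein genes had a median of -0.15 over 77 genes and cytosolic ones of -0.24 over 77 genes. AT2CTRL replicate 1 was high for both lists, which adds to these negative medians. In log2 CPM, the median mitochondrial ribosomal gene lay 0.24 above its mean over all libraries there, and between -0.105 and 0.010 elsewhere. For the median cytosolic one, these values were 0.39 there and -0.19 to -0.00098 elsewhere. None of either list was called by edgeR. At an unadjusted p under 0.05, 1 and 0 were higher and 5 of each (6.49%) lower, against 4.62% and 5.05% of all genes. *Mrps9* (-0.89, adjusted p = 0.122 by edgeR) and *Mrpl14* (0.92, adjusted p = 0.221 by edgeR) were the extremes of the first list, and *Rpl36a* (-0.40) and *Rpl3l* (0.91) those of the second. Among 15 carrier and uncoupling genes the median was -0.085, from -0.20 for *Slc25a13* to 0.96 for *Ucp3*, which was under 1 CPM in the mean of either group.

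The regulators of mitochondrial biogenesis did not pass the test either, with 0 of 20 called by edgeR at an adjusted and 0 at an unadjusted p under 0.05, and a median of -0.081. The coactivators *Ppargc1a* and *Ppargc1b* had log2 fold changes of -0.19 (SE 0.17) and 0.11 (SE 0.23). *Nrf1* was at 33.5, 32.2 and 31.8 CPM in AT2CTRL and 30.2, 28.7 and 33.6 CPM in AT2CAB. *Gabpa* was at 40.5, 43.7 and 44.1 CPM against 39.3, 47.4 and 34.5 CPM. The genes of both factors, whose letters were searched in the promoters above, overlapped between the groups, with log2 fold changes of -0.075 for *Nrf1* and -0.082 for *Gabpa*. *Esrra*, an orphan receptor that acts with *Ppargc1a*, had 0.11, and *Tfam*, which packs and transcribes mitochondrial DNA, had -0.060. The extremes of the list were *Polg2* (-0.29) and *Pprc1* (0.17).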

How the data were processed

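RNA of sorted cells was sequenced as paired reads. The authors deposited raw counts for each gene, without normalization, which they made with featureCounts 1.5.3 after Trimmomatic, HISAT2 on mm10 and duplicate removal in SAMtools. The header holds no option for strand, for read pairs or for reads on several genes, and 56.9% to 60.8% of the counts between 1 and 20 were even, so reads were taken as counted singly, which overstates the precision of low counts. Removal of duplicates can lower abundant short genes, and a read that overlaps several genes was not counted. Mitochondrial-encoded genes were not analysed here.

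The test was the quasi-likelihood one of edgeR (4.0.16, R 4.3.3) on TMM-scaled counts, after its default filter (minimum count 10), with Benjamini-Hochberg adjustment over 16723 genes. The study's methods name DESeq2, which was an alternative here (1.42.0), as was limma-voom (limma 3.58.1). CPM and TPM were computed from the deposited counts and lengths, and log2 CPM in the comparison of libraries used a pseudocount of 0.1 CPM. Intervals of a fold change are 95%. Near copies were sought with blastn 2.17.0+ in GENCODE M21 transcripts.

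The members and lists were chosen with earlier results of these data known, and the pericyte list after the values were seen. Gene lists cover other subunits, assembly factors, the TCA cycle, biogenesis, carriers, both kinds of ribosomal proteins, arms of complexes I and V, and markers. The other marker lists had median log2 fold changes of 0.33 for 6 AT1 genes, 0.65 for 10 immune genes and 0.17 for 7 tested airway genes. For the 10 AT2 genes the median was -0.30. The immune genes summed to 2002 to 2717 CPM in AT2CTRL and 320.8 to 1416 CPM in AT2CAB, opposite to their median, and without *Lyz1* to 73.2 to 90.8 and 65.6 to 173.6 CPM. Named were all of complex II, core subunits, the extremes of each complex in change and level, every gene at an unadjusted p under 0.05, paralog pairs, genes that failed the filter, the extremes of each related list and 6 regulators; 1 result is not reported here.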

Additional observations from a re-analysis of the deposited data

How the results depend on the processing

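Over 16 alternatives the 81 subunit genes gave 1296 log2 fold changes. Of these, 1217 stayed within the spread of replicates and 77 moved by more than it, all of them uncalled. The other 2 passed the threshold newly. The latter were both *Cox4i2*, so that the number of subunit genes called higher was 1 with DESeq2 and 1 with reads on Y-linked genes as a covariate, at either threshold, and 0 in the others; 0 were called lower in any. As the main test called 0 subunit genes, no called gene could change sign. The sign differed from that of the main test in 234 of the 1296 values. The median of all genes was 0.12 with library size only and 0.054 with an offset for gene length. The median of the 81 genes was 0.081 with library size only, 0.12 in the 4 libraries lacking Y-linked reads and 0.060 with the gene length offset, and leaving out 1 library each gave -0.12 to 0.075. It turned positive without AT2CTRL replicate 1. The median of complex I was 0.067 with library size only and 0.071 in the 4 libraries, that of complex II was 0.030 with library size only, and that of complex IV was 0.16 in the 4 libraries and -0.10 to 0.16 when 1 library was left out. On the TPM scale the summed level of AT2CAB over AT2CTRL was 1.08 for all subunit genes, 1.07 for complex I, 1.03 for II, 1.09 for III, 1.10 for IV and 1.08 for V; the cause was not tested. With 1 library of a group left out, 2 remained in it. The replicate numbers belong to different mice, and the deviations of same-numbered libraries correlated by -0.249, 0.206 and -0.533 across genes. The libraries with Y-linked reads, AT2CTRL replicate 1 and AT2CAB replicate 3, carry different numbers, and their shared deviation enters these values. The correlations therefore cannot show whether same-numbered libraries shared a batch, which was not tested. With the replicate block the median was -0.039 and 0 subunit genes were called. The depth of these libraries limits *Cox7b2*, *Cox8b* and *Cox8c*, which could not be tested.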
